A study of Monodelphis domestica with 7 samples.

Results

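KCNJ10 (ENSMODG00000024584) and KCNJ12 (ENSMODG00000001377) are inward rectifier potassium channel genes, and their rows were taken by gene identifier from the count table of the opossum spinal cord. They are 2 of the 21314 genes in that table, and both were among the 13534 genes that passed the filter on low counts. The study asked how gene expression in the cord of Monodelphis domestica responds to complete transection at an age when axons grow across the lesion (P7) and at an age when they do not (P28). The segment rostral to the cut at thoracic level 10 was collected 24 h after surgery, and RNA from it was sequenced together with RNA from the same segment of uninjured cords.

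Potassium leaves active neurons and has to be cleared from the narrow space around them, and inward rectifier (Kir) channels carry part of that traffic because they pass potassium more easily into the cell than out of it. KCNJ10 encodes the Kir subunit typical of astrocytes and oligodendrocytes, where it sets a strongly negative resting potential and takes up potassium. KCNJ12 encodes a strongly rectifying subunit of another Kir subfamily, best known from heart and skeletal muscle and also found in neurons, where it holds the resting potential near that of potassium. Channels of both kinds are tetramers held in the membrane by scaffolding proteins of the dystrophin complex and its relatives.

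There were 4 groups of pups of both sexes from a laboratory colony, with no strain, transgene or drug named apart from the isofluorane anaesthetic. P8 control cords (2 libraries) and P29 control cords (1 library) were uninjured, P7+24h injured cords (2 libraries) were cut at P7 and collected at P8, and P28+24h injured cords (2 libraries) were cut at P28 and collected at P29. At P7 whole litters were operated on and separate litters served as controls, so litter and injury cannot be told apart at that age. At P28 the controls were usually anaesthetised littermates of the injured pups. The paper describes libraries from pools of 2 individuals. Its animal numbers per group are larger than these libraries would then hold, so the pool size is uncertain. The libraries came from 2 sequencing runs whose samples had been collected separately, so a difference between the runs takes in both the collection and the sequencing, which cannot be told apart. The P29 control library was from run 1. Whole cord segments were used, so fewer cells of a type and less RNA per cell cannot be told apart.

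Library totals ran from 3332232 to 6256074 counts, and each run 2 library was deeper than each run 1 library. A gene with 3 counts had a CPM between 0.448 and 1.06, where CPM is a count relative to its library's total, corrected by TMM factors for differences in library composition, and values at or under that level are dominated by counting error. The first principal component of all genes tested (62.6% of the variance) separated P8 from P29 cords. The second (24.0%) separated run 1 from run 2 within each of the 3 groups that had both. On the second component, the P29 control of run 1 stood at -15.0. The other run 1 libraries stood at 27.6 to 50.8 and those of run 2 at -58.7 to -24.2. As a check of the labelled tissue, the oligodendrocyte gene MBP and the astrocyte genes GFAP and ALDOC had counts in every library. Intervals given for single libraries cover counting error only, and p-values measure only the spread between these pooled libraries.

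KCNJ10 was counted in every library. It had 35 counts in the P8 control of run 1 and 163 in that of run 2, which are 8.65 and 26.8 CPM. The P7+24h injured cords had 21 and 210 counts, or 5.51 and 31.4 CPM. The P29 control had 154 counts (44.2 CPM), and the P28+24h injured cords had 51 and 536 counts (17.98 and 86.8 CPM). In each of the 3 groups with a library from both runs, run 2 was the higher, and the P29 control lay between the injured libraries of its own age and above each P8 and P7+24h library.

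By group mean, KCNJ10 was lowest in P8 control cords (17.7 ± 12.8 CPM, SD, n = 2), followed by P7+24h injured cords (18.4 ± 18.3, n = 2), the P29 control (44.2, n = 1) and P28+24h injured cords (52.4 ± 48.6, n = 2). The libraries of the first pair overlapped, and the P29 control lay inside the range of the P28+24h libraries. The P29 control lay above both P7+24h libraries. The other means span both runs while the P29 control came from run 1 alone, and within run 1 the P29 control (44.2 CPM) was above the P28+24h library (17.98 CPM), the reverse of their order by mean.

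KCNJ12 was close to the limit of counting at the younger age. The P8 controls had 2 counts in run 1 and 6 in run 2 (0.494 and 0.987 CPM), and the P7+24h injured cords had 1 and 16 (0.262 and 2.39 CPM). At the older age its counts were 67 for the P29 control (19.2 CPM) and 10 and 75 for P28+24h injured cords (3.53 and 12.1 CPM). Unlike KCNJ10, the P29 control was the highest of all libraries, above the injured libraries of both runs, and the libraries collected at P29 did not overlap with those collected at P8.

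The order of the KCNJ12 group means was P8 control (0.741 ± 0.348 CPM, SD, n = 2), P7+24h injured (1.33 ± 1.50, n = 2), P28+24h injured (7.83 ± 6.09, n = 2) and P29 control (19.2, n = 1). The first pair overlapped. The lowest P28+24h library lay above the highest P7+24h library, and the single P29 control lay outside the range of the P28+24h libraries.

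**Figure D1:**
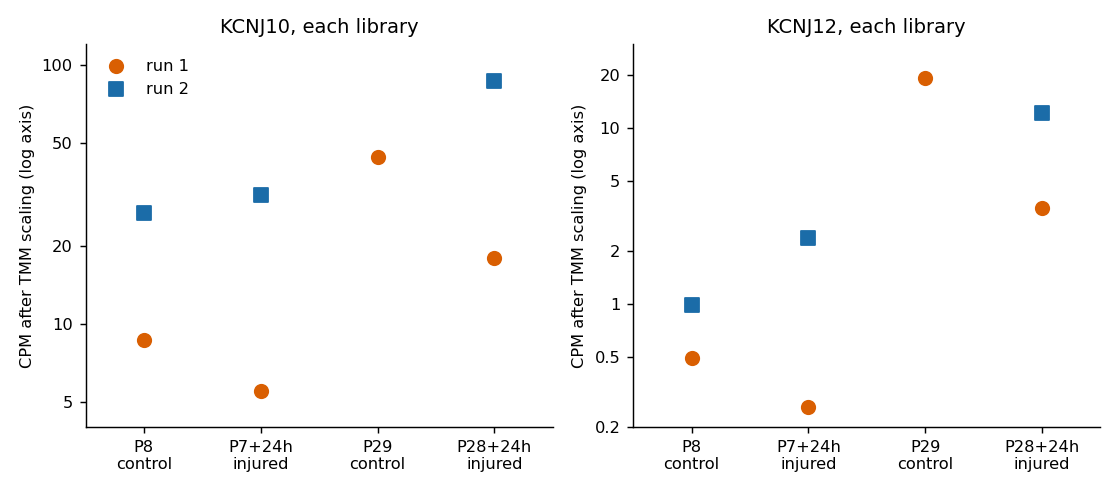
CPM after TMM scaling of KCNJ10 (left) and KCNJ12 (right) in each of the 7 libraries on log axes, with circles for run 1 and squares for run 2. Run 2 lies above run 1 in the 3 groups that have both, and the KCNJ12 value of the P29 control (19.2 CPM) is the highest of that gene.

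The run difference was measured directly within each group. KCNJ10 was 3.10-fold higher in run 2 than in run 1 in P8 controls (95% counting interval 2.14 to 4.60), 5.69-fold in P7+24h cords (3.63 to 9.39) and 4.83-fold in P28+24h cords (3.62 to 6.56). KCNJ12 was 3.44-fold higher in run 2 in P28+24h cords (1.77 to 7.47). At the younger age its ratios rest on 1 or 2 counts in run 1, with 2.00-fold in P8 controls (0.357 to 20.2) and 9.11-fold in P7+24h cords (1.42 to 382). All 6 ratios pointed to run 2.

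The model was then fitted across all genes with the run, which is the replicate number of each library, as a block. It put KCNJ10 at a log2 difference of 2.13 between the runs (SE 0.20, adjusted p = 3.30e-05, edgeR's quasi-likelihood test with Benjamini-Hochberg adjustment) and KCNJ12 at 1.86 (SE 0.42, adjusted p = 0.00460). Genes were called here and below where the adjusted p was under 0.05 and the fold was 2 or more. Both genes were called as higher in run 2, as were 11.3% of all genes tested. This comparison was chosen after the counts had been seen. Of all genes tested, 98.7% had a lower run difference than KCNJ10 and 97.2% a lower one than KCNJ12.

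**Figure D2:**
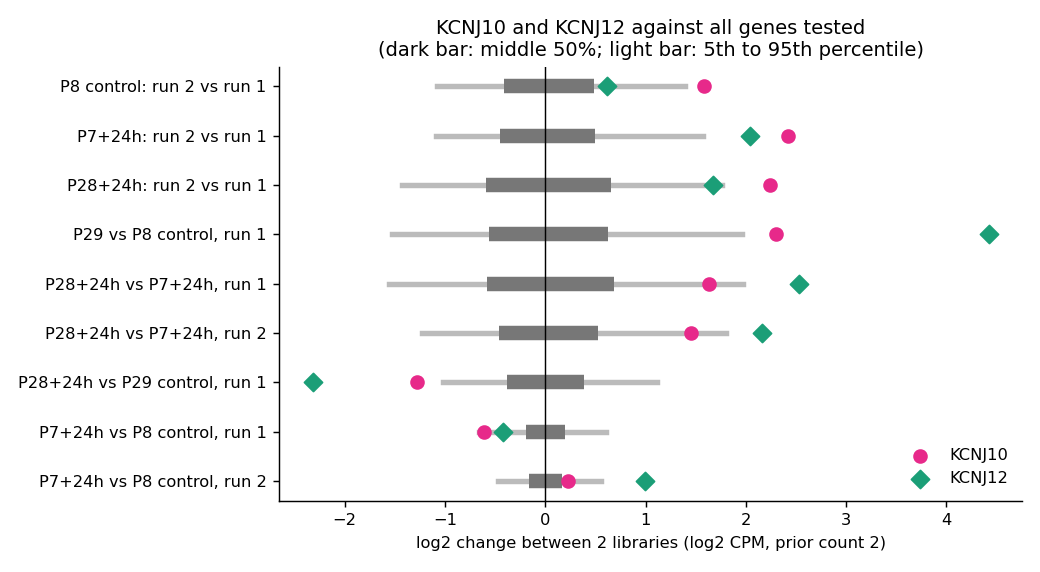
Log2 change of KCNJ10 (circles) and KCNJ12 (diamonds) between pairs of single libraries, with the dark bar spanning the 25th to the 75th percentile and the light bar the 5th to the 95th percentile of all 13534 genes tested. KCNJ10 lies beyond the 95th percentile in the 3 comparisons of run 2 with run 1, and both genes lie below the 5th percentile for P28+24h against P29 control in run 1.

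With uninjured cords, the question is how the channels change as the cord matures between P8 and P29. In run 1, KCNJ10 went from 35 counts at P8 to 154 at P29, a scaled ratio of 5.11 (counting interval 3.52 to 7.60). KCNJ12 went from 2 counts to 67, a ratio of 38.9 (10.4 to 328) whose width comes from the low count at P8. The P29 control also exceeded the run 2 P8 control for both genes, so neither gene's control libraries overlapped between the ages.

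The test without a run term (edgeR's quasi-likelihood test) gave KCNJ10 a log2 fold change of 1.30 (SE 1.24, adjusted p = 0.598) and KCNJ12 one of 4.60 (SE 1.12, adjusted p = 0.110), and neither was called, against 1.71% of all genes called as raised. With the block, the quasi-likelihood test gave KCNJ10 a log2 fold change of 2.68 (SE 0.29, adjusted p = 7.51e-05), a 6.41-fold rise. KCNJ12 had one of 5.91 (SE 0.56, adjusted p = 2.89e-05), a 59.9-fold rise. Both were thus called as raised with the block, along with 12.5% of all genes. KCNJ12 alone was also called as raised without a block by edgeR's exact test (adjusted p = 0.00331, 5.73% of genes), by DESeq2 (adjusted p = 0.00948, 4.29%) and by the quasi-likelihood test on the control groups only (adjusted p = 4.19e-04, 5.1%). The single P29 control cannot be left out of this comparison, and its spread is taken from the other groups.

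Between injured cords of the 2 ages, both runs can be compared within themselves and no library is shared with the control comparison. KCNJ10 was 3.27-fold higher in P28+24h than in P7+24h cords in run 1 (counting interval 1.93 to 5.72) and 2.77-fold higher in run 2 (2.35 to 3.26). KCNJ12 was 13.4-fold higher in run 1 (1.91 to 583, from 10 counts against 1) and 5.08-fold higher in run 2 (2.93 to 9.34). The ratio of each gene had the same direction in both runs, with overlapping intervals.

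In the quasi-likelihood test without the block, these were log2 fold changes of 1.50 for KCNJ10 (SE 1.06, adjusted p = 0.483) and 2.45 for KCNJ12 (SE 0.94, adjusted p = 0.226), neither called, while 2.26% of all genes were called as raised. With the block the values were 1.52 (SE 0.23, adjusted p = 4.17e-04) and 2.50 (SE 0.42, adjusted p = 8.96e-04). Both genes were called as higher at the older age, as were 13.8% of all genes tested.

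At P28, the comparison of injured with control cords asks whether transection alters the channels within 24 h at the age when axons no longer cross the lesion. In run 1, the only run with both groups, KCNJ10 had 154 counts in the control and 51 in the injured cords, a 2.46-fold lower scaled level (counting interval 1.78 to 3.44). KCNJ12 had 67 and 10 counts, a 5.45-fold lower level (2.79 to 11.9). As log2 changes these were -1.28 and -2.32, and 2.42% and 0.170% of all genes tested, respectively, had a lower change in the same pair of libraries. The study itself listed both genes as lowered at this age from these libraries, so their direction here is not independent evidence.

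Set against the same run 1 control, the run 2 injured cords gave a different picture for KCNJ10, which was 1.96-fold higher there (1.64 to 2.36). KCNJ12 was 1.58-fold lower (1.12 to 2.23). This pair of libraries differs in run as well as in injury. KCNJ12 was therefore lower than the control in both injured libraries, while KCNJ10 was lower in one and higher in the other.

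Without the block, edgeR's quasi-likelihood test gave a log2 fold change of 0.26 for KCNJ10 (SE 1.29, adjusted p = 1.00) and of -1.25 for KCNJ12 (SE 0.99, adjusted p = 1.00). No gene was called in that fit (0% of 13534, with 157 at an unadjusted p under 0.05), nor in DESeq2 (88 at an unadjusted p under 0.05). The exact test of edgeR called 3 genes (0.0222%), without KCNJ10 or KCNJ12 among them. That is the test the study names, so its listing of both genes as lowered was not reproduced by that test here. The likelihood ratio test with the block, given below, called both as lowered, along with 1.03% of all genes.

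With the block, the quasi-likelihood test gave KCNJ12 a log2 fold change of -2.50 (SE 0.47, adjusted p = 0.0399), which is 5.66-fold lower, and called it as lowered together with 0.17% of all genes. KCNJ10 stood at -1.20 (SE 0.28, adjusted p = 0.0755), or 2.30-fold lower, and was not called. Under the same block, edgeR's likelihood ratio test called both as lowered (adjusted p = 0.00536 for KCNJ10 and 5.76e-05 for KCNJ12), along with 1.03% of all genes. The block carries the run difference of the other groups over to the P29 control, which has no run 2 library. These values thus assume that the runs differ by the same factor in the control. On the second principal component, the P29 control (-15.0) lay between the nearest run 2 library (-24.2) and the nearest other run 1 library (27.6). Whether the assumption holds was not tested.

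With the block kept, each library of the other groups was left out in turn. The log2 fold change of KCNJ12 then stayed between -2.72 and -2.32, and that of KCNJ10 between -1.36 and -1.05. Each of these fits leaves 1 library in a further group. Their residual degrees of freedom are fewer than the 2 of the full blocked fit, so calls in them are not read as support. Without the block, KCNJ10 turned to -1.36 when the P28+24h injured library of run 2 was left out.

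**Figure D3:**
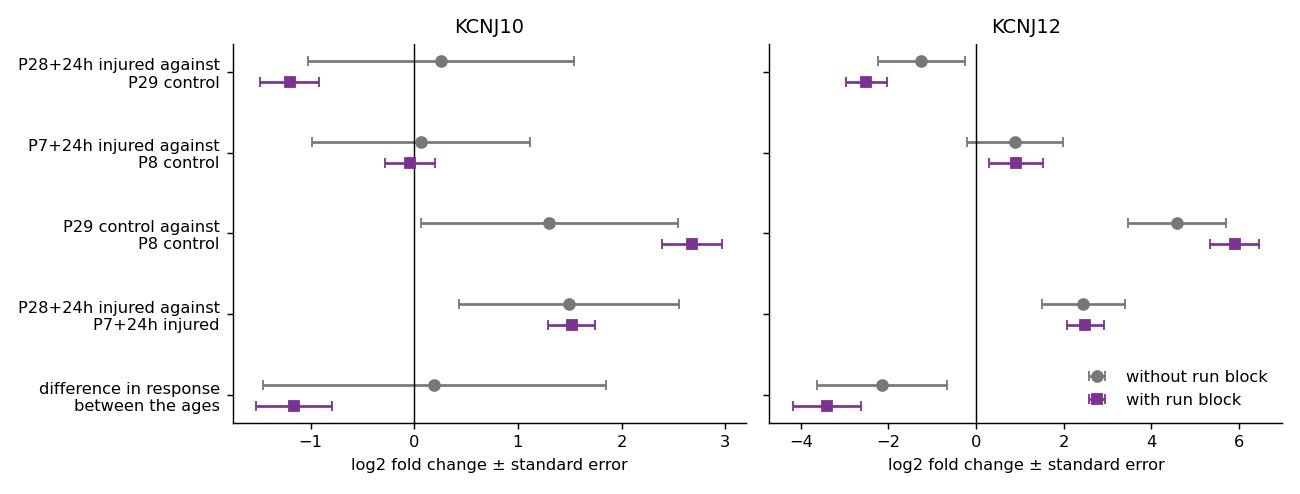
Log2 fold change with its standard error for KCNJ10 (left) and KCNJ12 (right) in the 5 comparisons, from edgeR's quasi-likelihood fit without the run block (grey circles) and with it (purple squares). With the block the standard errors shrink, the P28+24h value of KCNJ10 moves from 0.26 to -1.20 and that of KCNJ12 from -1.25 to -2.50.

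At P7, the age when axons grow across the lesion, both runs hold an injured and a control library. KCNJ10 had 21 counts in injured against 35 in control cords in run 1, a ratio of 0.637 (0.352 to 1.12), and 210 against 163 in run 2, a ratio of 1.17 (0.948 to 1.44). Both intervals include 1. KCNJ12 had 1 against 2 counts in run 1, a ratio of 0.530 (0.009 to 10.2), and 16 against 6 in run 2, a ratio of 2.42 (0.899 to 7.55), and both of these intervals include 1 as well. For both genes the ratios of the 2 runs pointed in opposite directions.

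The quasi-likelihood test gave log2 fold changes of 0.06 for KCNJ10 (SE 1.05, adjusted p = 1.00) and 0.89 for KCNJ12 (SE 1.09, adjusted p = 1.00) without the block, where 0% of all genes were called (69 at an unadjusted p under 0.05). With the block they were -0.04 (SE 0.24, adjusted p = 1.00) and 0.91 (SE 0.62, adjusted p = 1.00), and 0.0148% of all genes were called. A change of KCNJ12 was not detectable at this depth, with 1 to 16 counts per library and counting intervals that included 1 in both runs.

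Whether the response to injury differed between the ages was tested as the difference of the 2 responses, which shares the single P29 control with the comparison at P28. KCNJ10 had a log2 difference of 0.19 without the block (SE 1.66, adjusted p = 1.00, quasi-likelihood test) and of -1.16 with it (SE 0.37, adjusted p = 0.324). KCNJ12 had one of -2.14 without the block (SE 1.48, adjusted p = 1.00) and of -3.41 with it (SE 0.78, adjusted p = 0.198). Neither was called by the quasi-likelihood test in either fit, which called 0% and 0.0369% of all genes. By the blocked likelihood ratio test, KCNJ12 was called (adjusted p = 0.00514), with 0.281% of all genes called in the same direction, and KCNJ10 was not (adjusted p = 0.129).

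The balance between the 2 genes can be read within a library with no scaling at all, as the share of KCNJ12 in their summed counts. The share is not corrected for the length of the genes, so it compares libraries and not the 2 genes, and it was chosen after the counts had been seen. In P8 controls it was 5.41% in run 1 (exact Clopper-Pearson 95% interval 0.661 to 18.2) and 3.55% in run 2 (1.31 to 7.57). In P7+24h cords it was 4.55% (0.115 to 22.8) and 7.08% (4.10 to 11.2).

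At the older age the share was 30.3% in the P29 control (24.3 to 36.8), against 16.4% (8.15 to 28.1) and 12.3% (9.78 to 15.1) in the P28+24h injured cords of runs 1 and 2. The runs gave overlapping intervals in each group that had both. The P29 control was the highest library. Its interval lay above that of the run 2 injured library and overlapped with that of the run 1 injured library.

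**Figure D4:**
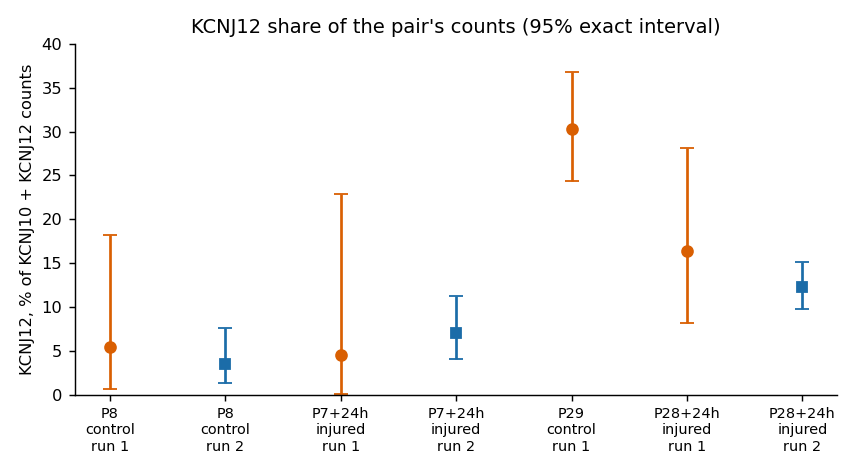
Share of KCNJ12 in the summed counts of KCNJ10 and KCNJ12 in each library, in percent, with exact 95% binomial intervals, circles for run 1 and squares for run 2. The P29 control stands at 30.3%, the P28+24h injured libraries at 16.4% and 12.3%, and the 4 younger libraries between 3.55% and 7.08%.

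Few partners of these channels could be followed, because gene symbols were tied to identifiers only through the study's own gene tables. Those tables hold a subset of genes selected largely for a reported change after injury. None of the 14 other members of the inward rectifier family and none of 75 further potassium channel subunits had an identifier there, and they were not analysed here. Of 21 scaffold and partner genes, 2 could be followed, DAG1 (dystroglycan, the membrane core of the dystrophin complex) and FLNA (filamin A, an actin cross-linker). DAG1 counts were 189 for the P29 control against 64 and 607 for P28+24h cords, a log2 fold change with the block of -0.99 (SE 0.25, adjusted p = 0.0957, quasi-likelihood test), and FLNA one of 0.94 (SE 0.23, adjusted p = 0.0833). Neither was called.

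Like KCNJ10, DAG1 was higher in run 2 than in run 1, with a log2 difference of 1.70 (adjusted p = 3.21e-05, quasi-likelihood test with the block). Of 19 genes of astrocyte potassium, glutamate and water handling, only SLC12A2, a cotransporter that brings sodium, potassium and chloride into cells, had an identifier. Its counts were 1285 for the P29 control against 392 and 2907 for P28+24h cords. Its blocked log2 fold change at P28+24h was -1.06 (SE 0.30, adjusted p = 0.125), not called by the quasi-likelihood test but called as lowered by the likelihood ratio test with the block (-1.07, adjusted p = 0.0316). Between control cords of the 2 ages it rose by 2.87 (SE 0.29, adjusted p = 5.19e-05), close to the 2.68 of KCNJ10.

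The cell types that carry KCNJ10 can be set beside it in the same libraries. Of 12 astrocyte markers, GFAP (the intermediate filament of astrocytes) and ALDOC (a glycolytic enzyme enriched in them) had identifiers, and their summed level was 6379 CPM for the P29 control against 5514 and 5806 for P28+24h cords. With the block, their log2 fold changes at P28+24h were -0.29 for GFAP (adjusted p = 0.622) and -0.30 for ALDOC (adjusted p = 0.577), not called, beside -1.20 for KCNJ10. Between P8 and P29 controls, GFAP rose by 2.46 (adjusted p = 5.50e-05) in the quasi-likelihood test with the block. It was called, as were 12.5% of all genes as raised. ALDOC, at 0.55 in the same fit, was not called.

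Of 20 oligodendrocyte lineage markers, 7 were followed, and their summed level was 78.7 to 295 CPM in the 4 younger libraries, 33769 for the P29 control and 20901 and 27291 for P28+24h cords of runs 1 and 2. All 7 were called as raised between P8 and P29 controls by the quasi-likelihood test with the block, as were 12.5% of all genes. The 7 had a median log2 fold change of 7.79 (all genes -0.02). Their lowest value was 3.56 for OLIG2, beside 2.68 for KCNJ10 and 5.91 for KCNJ12. At P28+24h all 7 were below zero with the block, between -1.44 and -0.80 (median -1.05, all genes 0.00 after rounding). The called ones were OLIG2, a transcription factor of the lineage, at -1.05 (adjusted p = 0.0389), and GPR17, a receptor of maturing oligodendrocytes, at -1.36 (adjusted p = 0.0366, quasi-likelihood test with the block), in a fit that called 0.17% of all genes as lowered. The likelihood ratio test with the block called 4 of the 7 as lowered, and 1.03% of all genes. Without the block, the run 2 injured library was above the P29 control for both, with log2 differences of 0.31 for OLIG2 and 0.71 for GPR17, across libraries that differ in run as well.

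In run 1 alone, the 7 oligodendrocyte genes were lower in the P28+24h cords by a median log2 change of -0.85 (range -1.59 to -0.47), so KCNJ10 at -1.28 was inside that range and KCNJ12 at -2.32 was below it. The run 2 injured library, set against the same P29 control of the other run, had 4 of the 7 lower and 3 higher, with a median of -0.23 (range -0.80 to 0.71). ERMN, a gene of myelinating cells, was at 0 counts in the P7+24h library of run 1, and the other 6 had counts in every library. The study reported oligodendrocyte genes from these same libraries, so their direction is not independent evidence, and the part of these cells in the channel values was not tested.

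Markers of muscle and of immune cells stood at higher levels in the P28+24h cords than in the P29 control. The 7 skeletal muscle markers with identifiers (of 20) summed to 18.4 CPM in the P29 control against 175 and 70.4 in the P28+24h cords of runs 1 and 2, and to between 9.87 and 19.9 in the younger libraries, with 2 of the 7 called as raised at P28+24h by the blocked quasi-likelihood test, which called 0.584% of all genes as raised, and 5 of the 7 by the likelihood ratio test (2.61% of all genes). KCNJ12, a gene known from muscle, had 3.53 CPM in the P28+24h library of run 1, 12.1 CPM in that of run 2 and 19.2 CPM in the P29 control. The injured libraries differ in run as well as in muscle sum, which cannot be told apart here. The 5 microglia and macrophage markers with identifiers (of 14) summed to 118 CPM for the P29 control and to 366 and 251 for P28+24h cords, with 0 of the 5 called by the blocked quasi-likelihood test and 4 called as raised by the likelihood ratio test. The markers had identifiers through the study's tables, which largely list genes reported as changed after injury in these same libraries. The counts called are therefore not independent evidence. The part of either cell type in the channel values was not tested.

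Red cell markers and the neuron marker differed between the runs. Of 3 red cell markers with identifiers (of 7), HBA had 0 counts in every library, and the summed level was 43.1 to 213 CPM in the 4 younger libraries, 174 for the P29 control, and 360 (run 1) and 121 (run 2) for P28+24h cords. HBZ and ALAS2 were lower in run 2 than in run 1, with blocked log2 differences of -3.03 and -1.62. The blocked quasi-likelihood test called both as lower in run 2, among 958 of the 13534 genes tested. Only HBZ was called as raised at P28+24h by the blocked quasi-likelihood test (2.48, adjusted p = 0.0229), while against the P29 control its log2 difference was 2.28 for injured cords of run 1 and -0.32 for those of run 2. SLC18A3, a transporter of acetylcholine into vesicles and the one neuron marker with an identifier (of 20), differed from the P29 control by a log2 value of -1.34 for injured cords of run 1 and 0.31 for those of run 2. It was called as higher in run 2, with a blocked log2 difference of 1.07, as were 11.3% of all genes. Its blocked change of -0.99 (adjusted p = 0.132) was not called by the quasi-likelihood test, while the likelihood ratio test called it as lowered (adjusted p = 0.0323). The part of these cells in the channel values was not tested. Of the endothelial and mural markers (2 of 15 with identifiers), VWF and KDR had blocked log2 changes of 1.06 and -0.77. Neither was called by the quasi-likelihood or likelihood ratio test with the block, and no ependymal marker (0 of 7) had an identifier.

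**Figure D5:**
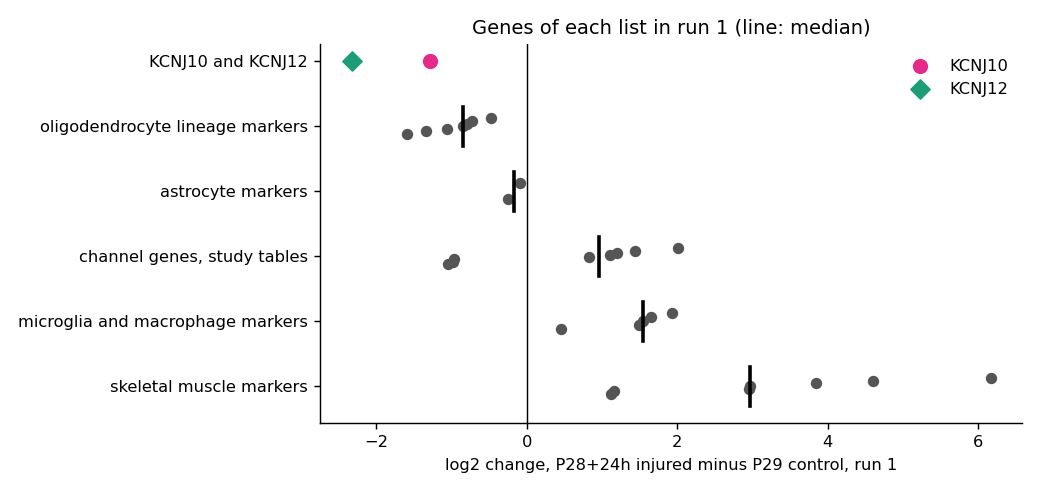
Log2 change between the P28+24h injured and the P29 control library of run 1 for KCNJ10, KCNJ12 and each gene of 5 lists, with a vertical line at the median of each list. The oligodendrocyte genes lie between -1.59 and -0.47 and the astrocyte genes near zero, while KCNJ12 lies at -2.32, below both lists.

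A further list, gathered after the values were seen, held 8 other channel genes followed through the study's tables. At P28+24h with the block, 5 were above zero and 3 below, and the quasi-likelihood test called none. The likelihood ratio test with the block called 5 as raised (2.61% of all genes) and 1 as lowered (1.03%). Their log2 fold changes ran from -1.01 for TRPC4AP, which encodes a protein that binds a TRP channel, to 2.23 for TRPC7, a channel of that family, beside -1.20 for KCNJ10 and -2.50 for KCNJ12. The list does not hold every channel gene of the study's tables, which largely list changes reported from these same libraries. The counts called are therefore not independent evidence.

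Likeness to the 2 channels was measured as Pearson's r of log2 CPM over the 7 libraries, which share the age groups and the runs, and is a description only. KCNJ10 was most like 5 genes with no symbol at hand (r from 0.992 to 0.993), led by ENSMODG00000023658. KCNJ12 was most like ENSMODG00000009061 (r = 0.993) and C1QTNF3, a secreted relative of complement C1q (r = 0.992). The 2 channels had r = 0.855 with each other. Among the genes tested, KCNJ12 came at rank 581 for KCNJ10, and KCNJ10 at rank 1036 for KCNJ12. After the run means were removed, their r was 0.991 and KCNJ12 came at rank 21, and KCNJ10 at rank 18 for KCNJ12, whose closest gene was then ECE1, an endothelin-converting enzyme (r = 0.996).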

How the data were processed

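RNA from the rostral cord was sequenced in 7 libraries, described by the paper as made from pools of 2 individuals. Single-end reads were trimmed by the authors, aligned to the Ensembl opossum genome using Bowtie2 and assigned to genes by HTSeq, and the deposited values are raw counts, not normalized. Use of strand is not given in the sources used here. Reads shared with similar Kir paralogs could have been assigned to either gene or dropped, so the counts are uncertain to that extent. The labels and the paper give different RNA integrity limits.

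Counts of the 13534 genes passing filterByExpr (minimum count 10) were scaled by TMM and tested over 4 groups in edgeR 4.0.16 (R 4.3.3, limma 3.58.1) with the quasi-likelihood test and Benjamini-Hochberg adjustment. Genes were called with an adjusted p under 0.05 where the fold was 2 or more, limits that the authors used with edgeR's exact test. Log2 CPM used a prior count of 2, and ratios of 2 libraries have exact 95% counting intervals. Standard errors (SE) were derived from the test, as the absolute log2 fold change divided by the square root of the quasi-likelihood F statistic. The replicate number, which the labels give as the run of separately collected samples, pairs the libraries: across genes, the run 2 minus run 1 differences of the groups correlated at 0.802, 0.699 and 0.737. Adding it as a block changed the residual degrees of freedom from 3 to 2 and the common dispersion from 0.141 to 0.0181. Alternatives were the block with the quasi-likelihood or likelihood ratio test, the exact test, DESeq2 1.42.0, other scalings and filters, the compared groups only and leaving out each library.

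Both genes were named by rule. From each list, up to 4 genes of the highest mean count and any called one could be named, besides the 5 genes most like each channel. The members and lists were chosen with earlier results of these data known. Identifiers were matched to symbols through the study's gene tables. The RefSeq table at hand held 14 KCNJ symbols and paired 0 of them with an Ensembl identifier, so no sequence is shown. Some further results are not given here.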

Additional observations from a re-analysis of the deposited data

How the results depend on the processing

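The cause of each change below was not tested. With the replicate block the log2 fold changes of KCNJ10 and KCNJ12 were -1.20 and -2.50 for P28+24h against P29 control, 2.68 and 5.91 for P29 against P8 control, and 1.52 and 2.50 for P28+24h against P7+24h. KCNJ10 went to -0.039 for P7+24h and to -1.16 for the difference between the ages. The likelihood ratio test with the block gave -1.20 and -2.50, 2.68 and 5.91, 1.52 and 2.49, and for KCNJ10 -0.044 and -1.16, with -3.41 for KCNJ12 in the difference. For P29 against P8 control, KCNJ12 was also called by the exact test (4.61), DESeq2 (4.64) and a quasi-likelihood fit of those groups alone (4.60). The other scalings and filters changed no call and no direction of either gene.

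Leaving out single libraries moved KCNJ10 from -1.36 to 0.96 and KCNJ12 from -2.72 to -0.67 for P28+24h against P29 control over fits with and without the block. The ranges were -1.69 to 1.11 and -1.46 to 1.60 for P7+24h, 0.72 to 3.08 and 4.25 to 6.26 for P29 against P8 control, -0.11 to 3.26 and 1.21 to 4.80 for P28+24h against P7+24h, and -1.55 to 1.95 and -3.75 to 0.21 for the difference. Without the block no library's absence gave a call, and the negative value for P28+24h against P7+24h came without the run 2 P28+24h library. With the block, some of these fits gave calls of both genes. Those calls are not read as support, because each fit leaves 1 library in a further group and fewer residual degrees of freedom.

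For P28+24h, the number of genes called was 0 without the block, 102 with it, 493 in the likelihood ratio test, 3 in the exact test, 2 on the compared groups and up to 960 in blocked fits with a library left out. At P7+24h it was 0, 2, 36, 5 and 0, with 2 in DESeq2 and up to 51. For P29 against P8 control it was 242, 2893, 3242, 972 and 989, with 855 in DESeq2, 138 by library size only and 0 to 3468 with a library left out. For the injured groups it was 380, 3064, 3274, 1301 and 67, with 1019 in DESeq2, 229 by library size only and 0 to 3634 with a library left out. For the difference it was 0, 5 and 200, with up to 720.

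Library size in place of TMM moved the median log2 fold change of all genes to -0.33 between control ages and 0.12 at P28+24h. The exact test and the compared groups gave no value for the difference, and KCNJ12 at P7+24h did not pass the filter when those groups were taken alone. Counts of 1 to 16 limit KCNJ12 at the younger age, and the single P29 control limits each value at P28+24h.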
